A study of Quercus lobata with 12 samples.

Results

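The comparison set leaf gene expression of the valley oak family HV-11 against that of the family LAY-15. Its members are the 8 seedlings labelled with these families, 4 of each, out of 12 seedlings in the series. The other 4 belong to the family YORK-09 and were used to show where another family lies and in alternative fits of all 12. Of these, the control YORK-09-03 and the 5-Azacytidine seedling YORK-09-08 were extracted on day 16 of October. That day had no HV-11 or LAY-15 seedling. The control YORK-09-10 and the 5-Azacytidine seedling YORK-09-37 were extracted on day 30. A family is the offspring of a single mother tree, and by the study's methods HV-11 came from Hidden Valley and LAY-15 from Laytonville in California, so that family, mother tree and locality cannot be told apart. HV-11 was represented by the control seedlings HV-11-05 and HV-11-34 and by HV-11-33 and HV-11-40, which had been treated with 5-Azacytidine. LAY-15 was represented by the control seedlings LAY-15-30 and LAY-15-03 and by the treated seedlings LAY-15-34 and LAY-15-09. Treated seedlings had received a 50 µM spray of 5-Azacytidine, a cytosine analog that lowers DNA methylation, in the surfactant TWEEN 20 for 27 days from an age of 5 months, and controls the surfactant alone. RNA of HV-11-05, HV-11-33, LAY-15-30 and LAY-15-34 was extracted on day 19 of October, and that of HV-11-34, HV-11-40, LAY-15-03 and LAY-15-09 on day 30. Each HV-11 seedling thus had 1 LAY-15 counterpart of the same treatment and day. The families had been picked by the study for large phenotypic differences between treated and control plants, and leaf damage by the surfactant had been seen in plants of both treatments.

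Valley oak is pollinated by wind, so seedlings of 1 mother tree mostly have different fathers and can carry different alleles from the mother as well. Expression of a gene can differ between families through inherited variants at the gene itself, through variants at genes that regulate it, or because a copy is missing or altered in one family. In leaf RNA of whole tissue, fewer cells of a type and less RNA per cell cannot be told apart. Likewise, read counts cannot tell a silent gene from one that is absent or too diverged to be aligned to the single reference genome. The deposited identifiers (QL, 2 digits, then a number) carry no gene names in the table, and 0 of 39373 were found in RefSeq's gene table for valley oak, so gene functions, leaf marker genes and gene sequences are not given.

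Between 10733171 and 11567589 reads per HV-11 seedling and between 9926728 and 11415235 per LAY-15 seedling were counted on genes. No difference between the families was detected in total counts, in genes with at least 1 count or in the share of counts held by the 10 most counted genes (exact permutation tests, two-sided, adjusted p = 0.314 for each of the 3, where 0.0286 is the smallest unadjusted p that 4 against 4 allow). Genes with at least 1 count numbered 26689 ± 770 in HV-11 and 26207 ± 315 in LAY-15 (SD, n = 4 each). Of the genes in the table, 22823 passed the filter on low counts and were tested. Levels are given as CPM, which are counts relative to the library total after TMM scaling, a method that sets the libraries on a common scale from the genes they share.

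Over the tested genes, the mean log2(CPM + 1) of HV-11 and LAY-15 correlated at r = 0.93, against 0.96 for HV-11 and YORK-09 and 0.93 for LAY-15 and YORK-09, where genes are not independent replicates. The median absolute log2 difference between HV-11 and LAY-15 was 0.44, and 23.8% of genes differed by more than 1 on this scale.

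On the variance-stabilized scale of DESeq2, 22.8% of the summed squared distance among the 8 seedlings lay between families, against a mean of 14.3% over the 35 ways to split them 4 against 4 (p = 0.0571 by a one-sided exact permutation test). These splits leave the matching by treatment and day aside. With the mean of each treatment and day removed, the share was 39.2% against a mean of 25% over the 8 swaps within matched pairs (p = 0.125 by a one-sided exact permutation test, the smallest that 8 swaps allow). Extraction day accounted for 19.4% (exact permutation test, one-sided, p = 0.143) and treatment for 10.6% (exact permutation test, one-sided, p = 0.771). The distance between seedlings averaged 121 within HV-11 (6 pairs), 148 within LAY-15 (6 pairs) and 146 between the families (16 pairs). On average HV-11 seedlings were closer to each other than to LAY-15, whereas LAY-15 seedlings were about as far from each other as from HV-11. Within LAY-15 the distance was 105 between the day 30 seedlings, 147 between the day 19 seedlings and 159 on average across the days. For HV-11 these values were 114, 122 and 122. For 4 of the 8 seedlings the nearest one was of their own family, and for 5 it was of the same extraction day. Neither count was tested.

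LAY-15-30 and LAY-15-34, the LAY-15 seedlings of day 19, stood apart from the rest on the first principal component. On this component, which held 39.1% of the variance, they lay at 130.5 and 57.9, while the other 6 seedlings lay between -58.8 and -6.75. On the second component they lay apart from each other, at 42.7 and -36.1. The seedling nearest to LAY-15-34 was HV-11-33, at a distance of 125 against 147 to LAY-15-30. The distance between HV-11 and LAY-15 seedlings averaged 163 on day 19 (4 pairs) and 127 on day 30 (4 pairs). Without LAY-15-30 and LAY-15-34, the share of squared distance between families was 25% (p = 0.2 by a one-sided exact permutation test). The mean share over the 15 possible splits of the seedlings left was 20%. Some of the counts below are also given without LAY-15-30 and LAY-15-34.

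**Figure D1:**
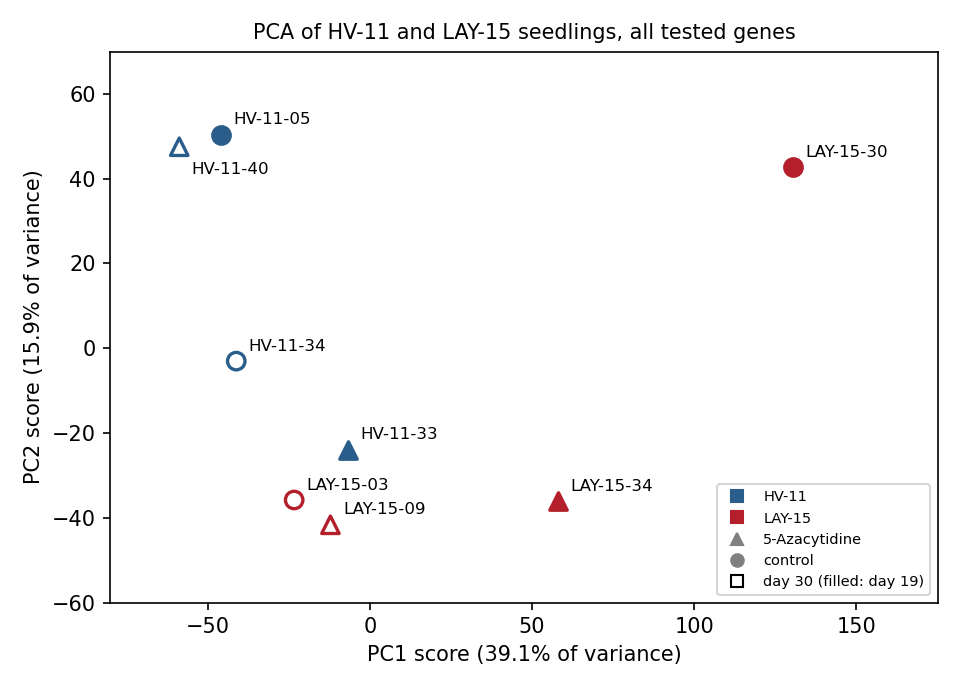
Scores of the 8 seedlings on the first and second principal component of all tested genes, with colour for family, shape for treatment and filled symbols for day 19. LAY-15-30 and LAY-15-34 lie at 130.5 and 57.9 on the first component, to the right of the other 6 seedlings, and the day 30 seedlings of LAY-15 lie beside HV-11-33.

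Family was tested gene by gene with treatment and extraction day as covariates, using edgeR's quasi-likelihood test with Benjamini-Hochberg adjustment over the 22823 genes. An adjusted p-value under 0.05 was found for 2 genes (0.00876% of those tested), 1 higher and 1 lower in HV-11. Without adjustment, 1140 genes higher in HV-11 (4.99%) and 1131 lower in HV-11 (4.96%) had p under 0.05. For 718 genes (3.15%) every HV-11 seedling was above every LAY-15 seedling, and for 634 genes (2.78%) every HV-11 seedling was below every LAY-15 seedling. Seedlings split without regard to family would also leave some genes without overlap, and these counts were not tested. DESeq2, the tool named in the study's methods, called 418 genes higher (1.83%) and 350 lower in HV-11 (1.53%) with the same model. The 2 calls of edgeR became 0 without HV-11-05, HV-11-40, LAY-15-09 or LAY-15-34, and 0 without both LAY-15 seedlings of day 19. DESeq2's 768 calls lay between 413, without HV-11-05, and 1336, without HV-11-34, in fits that each left out 1 seedling.

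The gene with the smallest p-value, QL06p021440, was nearly silent in HV-11. It had 5, 3, 5 and 3 counts in HV-11-05, HV-11-33, HV-11-34 and HV-11-40, against 1266, 1432, 623 and 893 counts in LAY-15-30, LAY-15-34, LAY-15-03 and LAY-15-09. The families did not overlap in any seedling. Its level was 0.346 ± 0.0866 CPM in HV-11 and 105.7 ± 34.7 CPM in LAY-15 (SD, n = 4 each), a log2 difference of -8.15 (approximate standard error 0.37, adjusted p = 0.00700). On the linear scale LAY-15 was 304-fold above HV-11 (95% interval 187 to 533, exact and for counting error only). The log2 difference was -8.49 on day 19 and -7.79 on day 30. Its adjusted p lay between 0.0207 and 0.113 in fits that left out 1 seedling and was over 0.05 without HV-11-05, HV-11-40, LAY-15-09 or LAY-15-34, and it was 0.205 when all 12 seedlings were fitted. In YORK-09 the gene had 905 counts in YORK-09-10 and 10, 9 and 2 counts in YORK-09-03, YORK-09-08 and YORK-09-37, so that both high and low counts were found within the third family.

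QL02p066548 showed the reverse pattern. It had 1145, 460, 1268 and 591 counts in HV-11-05, HV-11-33, HV-11-34 and HV-11-40, against 2, 0, 0 and 0 counts in LAY-15-30, LAY-15-34, LAY-15-03 and LAY-15-09. Both treated HV-11 seedlings had less than both HV-11 controls, and all 4 were far above LAY-15. The level in HV-11 was 74.4 ± 31.6 CPM (SD, n = 4), and HV-11 was 1499-fold above LAY-15 on the linear scale (95% interval 415 to 12387, exact and for counting error only, since LAY-15 had 2 counts in all). Its adjusted p was 0.0461 with edgeR, between 0.109 and 0.228 in the 8 fits that each left out 1 seedling, and 0.0105 when all 12 seedlings were fitted. In YORK-09 it was again in 2 states, with 4004 and 1592 counts in the day 16 seedlings YORK-09-03 and YORK-09-08 and 1 and 4 counts in the day 30 seedlings YORK-09-10 and YORK-09-37.

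The second gene in each direction did not pass the threshold with edgeR. QL01p009420 had 0, 0, 1 and 0 counts in HV-11-05, HV-11-33, HV-11-34 and HV-11-40, against 195, 249, 465 and 166 counts in LAY-15-30, LAY-15-34, LAY-15-03 and LAY-15-09 (adjusted p = 0.0818). YORK-09-10 had 76 counts of it and the other YORK-09 seedlings at most 1. QL08p032020 differed by degree, without a silent state. Its level was 28.8, 14.8, 76.0 and 98.6 CPM in HV-11-05, HV-11-33, HV-11-34 and HV-11-40, against 3.86, 3.48, 19.2 and 13.7 CPM in LAY-15-30, LAY-15-34, LAY-15-03 and LAY-15-09. HV-11 was above LAY-15 in each of the 4 pairs matched for treatment and day, but the families overlapped, since HV-11-33 was under LAY-15-03. Day 30 seedlings were higher than day 19 seedlings in both families, and the log2 difference was nearly the same on each day, 2.52 on day 19 and 2.45 on day 30 (2.49 over both days, approximate standard error 0.27, adjusted p = 0.127). YORK-09 lay between 16.2 and 26.2 CPM.

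**Figure D2:**
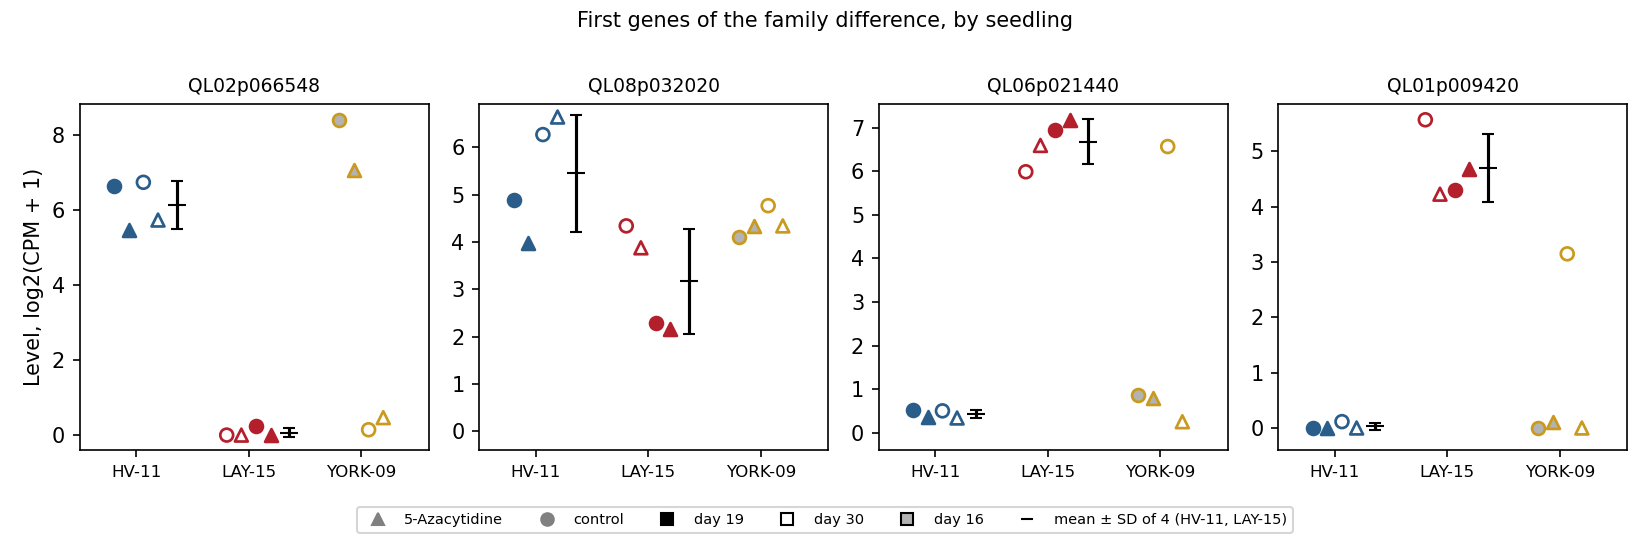
Level of QL02p066548, QL08p032020, QL06p021440 and QL01p009420 as log2(CPM + 1) in each seedling, by family, with treatment as shape and extraction day as fill. Bars are the mean and SD of the 4 seedlings of HV-11 and of LAY-15. In 3 of the 4 genes 1 family sits near 0, and YORK-09 holds seedlings near 0 and at least 1 well above it. For QL01p009420 the highest YORK-09 seedling (YORK-09-10, 7.87 CPM) lies below the lowest LAY-15 seedling (LAY-15-09, 17.7 CPM).

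Presence in one family and absence in the other was then counted directly over all 39373 genes. A gene was called on where all 4 seedlings of a family reached 10 counts, and off where none of the 4 exceeded 3 counts. By this rule 20 genes were on in HV-11 and off in LAY-15, and 18 were off in HV-11 and on in LAY-15. The genes were chosen by their counts, so the following is a description. All 38 passed the filter and had p under 0.05 with edgeR before adjustment, 1 passed with adjustment (QL02p066548), and DESeq2 called 38. The count was 9 when 0 counts were required in the family without, and 18 when at least 20 counts were required in the family with. It was 129 without the LAY-15 seedlings of day 19. With fewer seedlings to meet the rule the count can only stay or rise, and no other pair was left out for comparison. Among the seedlings of day 19 alone, 211 genes were on in HV-11 and off in LAY-15, against 244 off in HV-11 and on in LAY-15. The same counts were 216 and 130 among the seedlings of day 30. Of these genes only the 38 had the pattern in all 8 seedlings.

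Levels of the 20 genes on in HV-11 ran from 1.05 to 126 CPM (mean of the 4 seedlings), with a median of 3.17 CPM. Those of the 18 genes on in LAY-15 ran from 1.37 to 27.0 CPM, with a median of 4.82 CPM. For 9 genes the family without had 0 counts in all 4 seedlings. The family with the gene was then at least 24.2 to at least 347-fold higher (5 genes on in HV-11) or at least 23.1 to at least 263-fold higher (4 genes on in LAY-15), taking 3 counts over the group as the limit. Within the family that had it, the highest seedling was a median of 3.22 times the lowest for genes on in HV-11 and 2.3 times for genes on in LAY-15.

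The gene with the highest level of the 38 was on in HV-11, with 3595, 1139, 1077 and 14 counts in HV-11-05, HV-11-33, HV-11-34 and HV-11-40, against 1, 0, 1 and 0 counts in LAY-15-30, LAY-15-34, LAY-15-03 and LAY-15-09. HV-11-40 stood far below the other HV-11 seedlings. The next gene in the order of identifiers was also on in HV-11, with 735, 136, 89 and 241 counts, against 0 in each LAY-15 seedling. In YORK-09 both genes were counted in YORK-09-10 (487 and 98 counts) and at most 2 times in the other YORK-09 seedlings. Another pair of next identifiers was on in LAY-15. The first of them had at most 1 count in each HV-11 seedling, against 65, 26, 19 and 12 counts in LAY-15-30, LAY-15-34, LAY-15-03 and LAY-15-09. The second had at most 2 counts in each HV-11 seedling, against 87, 69, 72 and 67 counts in the same order.

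YORK-09 seedlings, which entered neither the rule nor the fit, were split at the limit of 3 counts for most of these genes. This limit is below the 10 counts required for on, and some genes split in this way reached 10 in no YORK-09 seedling. Of the 38 genes, 25 had more than 3 counts in 1, 2 or 3 of the 4 YORK-09 seedlings, 11 in 0 and 2 in all 4. Of the 20 genes on in HV-11, 2 were at 3 counts or fewer in every YORK-09 seedling. One of them had 73, 32, 60 and 101 counts in HV-11-05, HV-11-33, HV-11-34 and HV-11-40 and 0 in each of the 8 seedlings of LAY-15 and YORK-09. Of the 18 genes on in LAY-15, 9 were at 3 counts or fewer in every YORK-09 seedling. The most counted of these had 0 to 1 count in each HV-11 seedling, against 135, 180, 231 and 274 counts in LAY-15-30, LAY-15-34, LAY-15-03 and LAY-15-09, and 0 in each YORK-09 seedling.

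**Figure D3:**
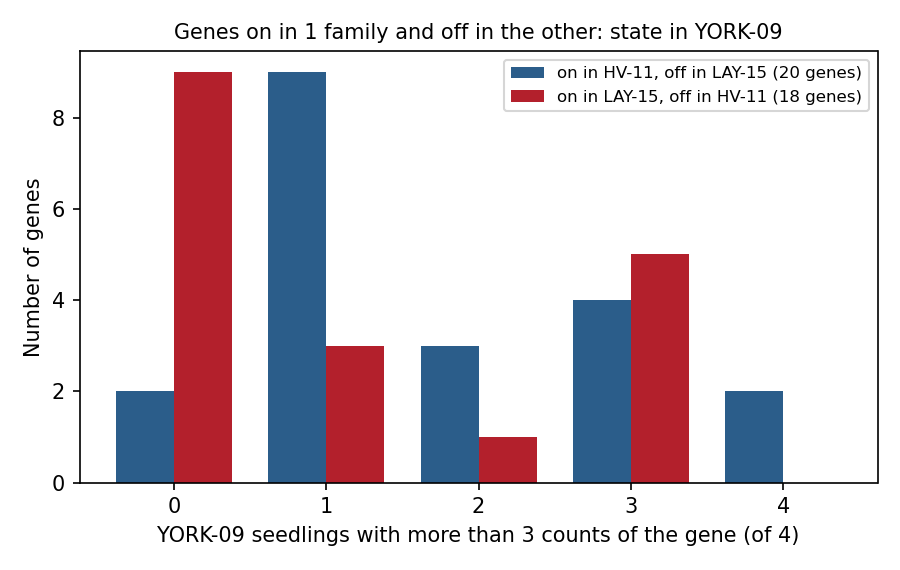
Number of genes by how many of the 4 YORK-09 seedlings had more than 3 counts, in blue for the 20 genes on in HV-11 and off in LAY-15 and in red for the 18 genes off in HV-11 and on in LAY-15. The tallest bars are at 1 seedling for genes on in HV-11 (9 genes) and at 0 seedlings for genes on in LAY-15 (9 genes), and 25 genes lie at 1 to 3 seedlings.

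The tested genes were divided by mean CPM into 4 classes of equal size. The share with p under 0.05 before adjustment was 10.5% in the lowest class (up to 3.22 CPM) and 9.85% in the highest (from 34.4 CPM). The families did not overlap for 6.75% of genes in the lowest and 4.54% in the highest class. The size of the difference went down with the level, with a median absolute log2 difference of 0.83 in the lowest class and 0.30 in the highest. Among the 1352 genes without overlap the median was 1.34, and 264 of them (19.5%) differed by more than 3, against 3.86% of all tested genes. These genes were chosen by their values in the same seedlings. Larger differences among them follow from that choice. From the lowest to the highest class, DESeq2 called 192 (3.36%), 257 (4.50%), 189 (3.31%) and 130 genes (2.28%), against 3.37% of all tested genes.

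The most abundant genes that DESeq2 called differed by degree. The first of those higher in HV-11 was at 2120 ± 642 CPM in HV-11 and 716 ± 338 CPM in LAY-15 (SD, n = 4 each), with 1506 CPM in the lowest HV-11 seedling and 1188 CPM in the highest LAY-15 seedling. Its log2 difference was 1.67 (approximate standard error 0.39), with an adjusted p of 0.460 from edgeR and 6.24e-04 from DESeq2. The first of those lower in HV-11 was at 339 ± 210 CPM in HV-11 and 1367 ± 412 CPM in LAY-15 (SD, n = 4 each), a log2 difference of -2.07 (approximate standard error 0.61), with an adjusted p of 0.470 from edgeR and 0.0270 from DESeq2. HV-11-05 had 56.7 CPM of it, and the other HV-11 seedlings 311 to 538 CPM. The families did not overlap for either gene.

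The extraction days, which share no seedling, gave separate measurements of the family difference. In the 4 seedlings of day 30 alone, with treatment as covariate, 439 genes had p under 0.01 before adjustment, and 296 of these (67.4%) had the same direction in the 4 seedlings of day 19. Over all tested genes, 56.0% had the same direction on both days. The genes chosen on day 30 had a median absolute log2 difference of 2.82 there, and on day 19 a median of 0.90 in the direction of day 30. On day 19, 211 of them (48.1%) differed by more than 1 in the same direction and 83 by more than 1 in the opposite direction. Over all tested genes, 36.5% differed by more than 1 in either direction on day 19 and 26.6% on day 30. On day 30, 16.4% did so in the direction of day 19, and the like share for day 19 is not given. Chosen on day 19, 306 genes passed and 187 of these (61.1%) had the same direction on day 30, where 111 (36.3%) differed by more than 1 in that direction. Their median absolute log2 difference was 4.79 on day 19, and on day 30 their median was 0.42 in the direction of day 19. The log2 differences of the days correlated at r = 0.24 over the tested genes (a description over genes, which are not independent).

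**Figure D4:**
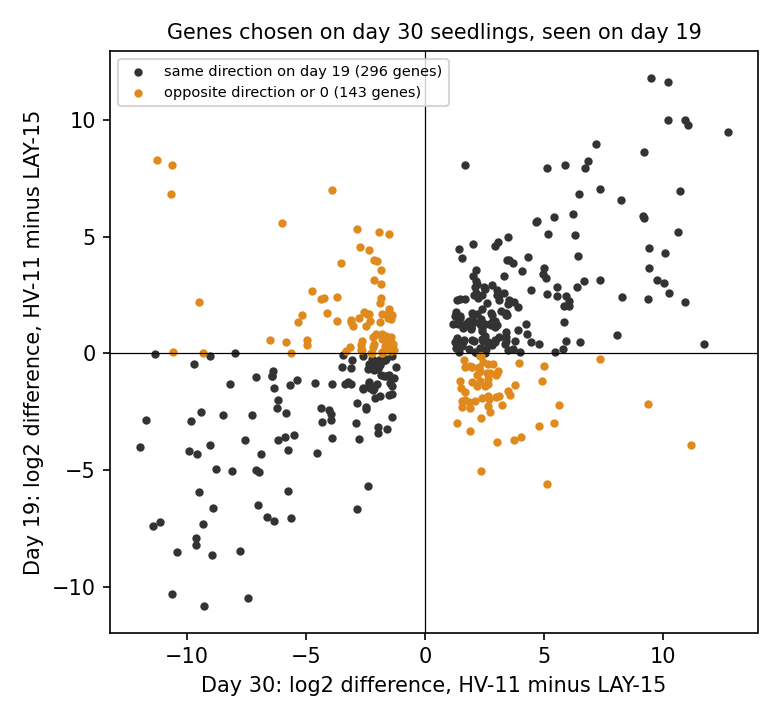
Log2 difference HV-11 minus LAY-15 of the 439 genes chosen in the day 30 seedlings, on day 30 (horizontal) and in the day 19 seedlings (vertical), 1 point a gene. The 296 genes in dark grey lie in the same direction on both days, and the genes in orange in opposite directions or at 0 on day 19.

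With a single fit to all 8 seedlings, HV-11 and LAY-15 differed at p under 0.05 before adjustment in 3002 genes (13.2%) on day 19, 1211 of them higher and 1791 lower in HV-11, and in 1393 genes (6.1%) on day 30. With adjustment edgeR called 1 gene on day 19 and 0 on day 30, where DESeq2 called 1615 and 332. The call on day 19 was lost when any 1 of the 8 seedlings was left out. The difference between the days was tested as the family by extraction day interaction. It reached p under 0.05 before adjustment in 1897 genes (8.31%), and after it in 0 with edgeR (smallest adjusted p = 0.0792) and 608 with DESeq2. Among these 1897 genes, the mean of the LAY-15 seedlings of day 19 was the farthest of the 4 family and day means from their median for 1145 (60.4%), against 43.7% of all tested genes.

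The gene called on day 19, QL11p040314, was also the first gene of the interaction. It had 926, 851, 481 and 627 counts in HV-11-05, HV-11-33, HV-11-34 and HV-11-40, against 1, 1, 555 and 845 counts in LAY-15-30, LAY-15-34, LAY-15-03 and LAY-15-09. LAY-15 was thus at the level of HV-11 on day 30 and at 1 count in each seedling on day 19. HV-11 was 806-fold higher on day 19 (95% interval 223 to 6662, exact and for counting error only, adjusted p = 0.0480 from edgeR), and the log2 difference on day 30 was -0.60. The interaction was 10.11 on the log2 scale (approximate standard error 0.51, adjusted p = 0.0792), and YORK-09 had 153 to 803 counts. QL02p050390 followed the same order, with 494, 418, 343 and 341 counts in HV-11-05, HV-11-33, HV-11-34 and HV-11-40, against 10, 14, 931 and 677 counts in LAY-15-30, LAY-15-34, LAY-15-03 and LAY-15-09 (interaction 6.59, adjusted p = 0.212).

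The first genes in the other direction were high in the LAY-15 seedlings of day 19. QL06p000916 had 71.5, 106, 240.4 and 223 CPM in HV-11-05, HV-11-33, HV-11-34 and HV-11-40, against 540.4, 928, 91.3 and 91.7 CPM in LAY-15-30, LAY-15-34, LAY-15-03 and LAY-15-09. HV-11 was below LAY-15 in both pairs of day 19 and above it in both pairs of day 30 (interaction -4.38, approximate standard error 0.51, adjusted p = 0.513). QL05p069603 had 740, 377, 1014 and 676 counts in HV-11-05, HV-11-33, HV-11-34 and HV-11-40, against 2190, 1865, 242 and 224 counts in LAY-15-30, LAY-15-34, LAY-15-03 and LAY-15-09 (interaction -3.61, approximate standard error 0.42, adjusted p = 0.513). Over both days neither gene differed between families beyond the spread (unadjusted p = 0.480 and 0.773).

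**Figure D5:**
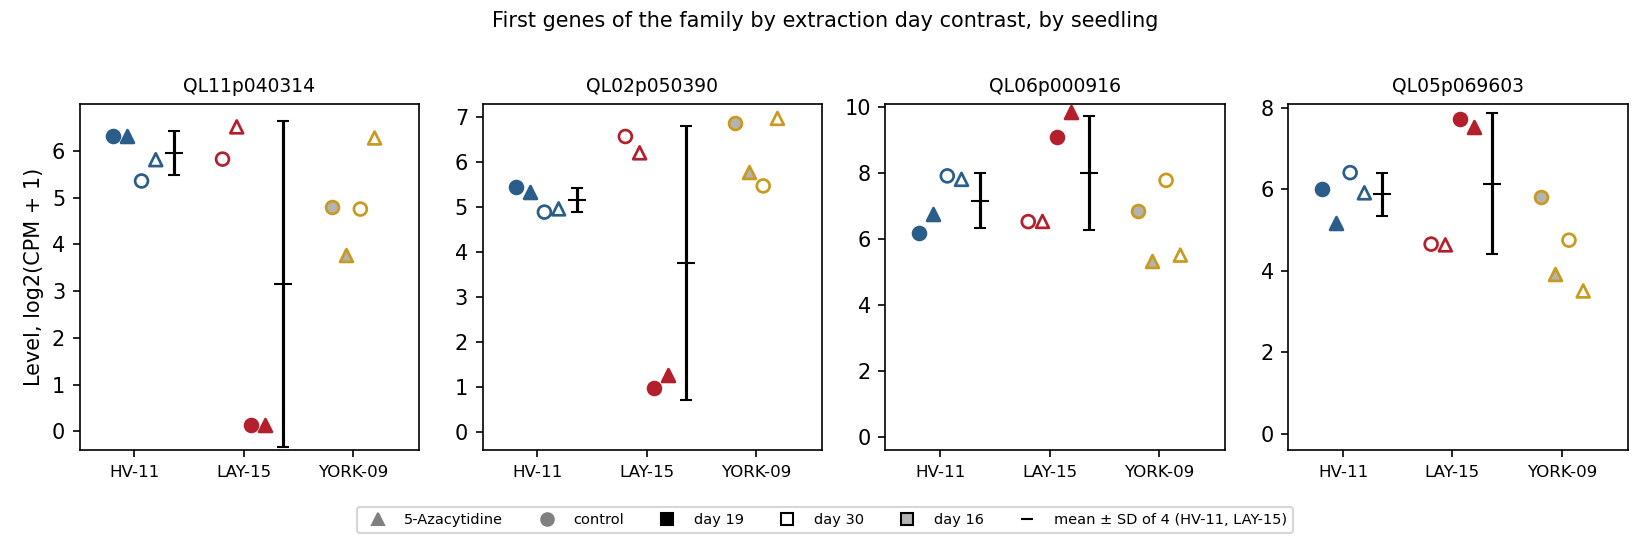
Level of QL11p040314, QL02p050390, QL06p000916 and QL05p069603 as log2(CPM + 1) in each seedling, by family, with treatment as shape and extraction day as fill. Bars are the mean and SD of the 4 seedlings of HV-11 and of LAY-15. The filled LAY-15 symbols (day 19) lie apart from the open ones (day 30) in each gene, while the HV-11 seedlings lie closer together.

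The family by treatment interaction reached p under 0.05 before adjustment in 632 genes (2.77%), and after it in 0 genes with edgeR (smallest adjusted p = 1.00) and 93 with DESeq2. For the first gene of this interaction, HV-11 had 887 and 1343 counts in treated and 338 and 550 in control seedlings, against 187 and 258 in treated and 1514 and 1930 in control seedlings of LAY-15. Counts of this gene were thus higher in treated than in control seedlings in HV-11 and lower in LAY-15, without overlap (interaction 4.34 on the log2 scale, approximate standard error 0.36, adjusted p = 1.00 from edgeR and 5.49e-22 from DESeq2). The gene was chosen for this interaction, so the pattern follows from the choice. In YORK-09, the day 16 seedlings had 6947 counts in the control and 1350 in the treated one. Those of day 30 had 678 counts in the control and 1161 in the treated one, so the direction differed within YORK-09.

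Over all tested genes, the mean log2(CPM + 1) of YORK-09 was nearer to HV-11 than to LAY-15 for 59.9%. For 61 genes HV-11 and LAY-15 differed at p under 0.001 before adjustment. The mean log2(CPM + 1) of YORK-09 was nearer to HV-11 for 38 of these (62.3%) and nearer to LAY-15 for 23. It was nearer to HV-11 for 24 of the 34 genes lower in HV-11 and for 14 of the 27 genes higher in HV-11. It lay between the families for 49, beyond HV-11 for 10 and beyond LAY-15 for 2. Both genes called by edgeR were among those nearer to HV-11. Of the 768 genes called by DESeq2, YORK-09 was nearer to HV-11 for 497 (64.7%), which were 252 of the 350 lower and 245 of the 418 higher in HV-11. Over all tested genes YORK-09 was nearer to HV-11 for 62.2% of those lower and 57.5% of those higher in HV-11, and no difference from these shares was tested.

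Some genes without overlap between the families lay next to each other in the order of identifiers. Of the 1352 genes without overlap, which were 5.92% of those tested, 242 (17.9%) had a neighbour in the list of tested identifiers that was also without overlap, against 11.4% of all tested genes with at least 1 such neighbour. These formed 130 neighbouring pairs, of which 100 (76.9%) had the same direction, against 54.2% of all 22810 neighbouring pairs. Neighbours can be overlapping genes or near-identical copies, and the strand setting of the count is not given in the sources used here, so the part of shared reads was not tested. By the 2 digits of the identifier, the share of genes without overlap ran from 4.21% (digits 08) to 8.24% (digits 04) among 01 to 12, and was 14.1% (38 of 269 genes) for the digits 93.

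The spread among seedlings was also compared within each family. The SD of log2(CPM + 1) over the 4 seedlings had a median over genes of 0.42 in HV-11 and 0.52 in LAY-15, and it was larger in LAY-15 for 61.3% of the tested genes. When each family was fitted with its treatments and days, edgeR's common dispersion gave a biological coefficient of variation of 0.606 in HV-11 and 0.570 in LAY-15. These are different measures and are not compared with each other.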

How the data were processed

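Whole-number read counts per gene were deposited by the authors for each seedling without normalization. Per the labels and the methods, reads were trimmed with Cutadapt 2.3, aligned to version 3.0 of the Quercus lobata genome with STAR 2.7.1, stripped of multi-mapping reads with SAMtools 1.9 and of platform duplicates with Picard 2.20.3, and counted with HTSeq 0.11.1. Genes with near-identical copies are uncertain. The strand setting and annotation version are not given in the sources used here. In each of the 28 pairs of seedlings, chi-square divided by its degrees of freedom was 33.2 to 189, so no pair agreed within sampling noise.

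The 8 seedlings were grouped by the family label, and individual seedlings are the replicates. The filter was edgeR's filterByExpr with min.count 10 and min.total.count 15 over the family and treatment groups. Counts were scaled by TMM and tested across all genes with edgeR 4.0.16 in R 4.3.3 (adjusted p under 0.05). DESeq2 1.42.0 was the alternative. Differences are HV-11 minus LAY-15, and standard errors are approximated from the test statistic. CPM use TMM factors of all 12 seedlings. Ratios with intervals use summed counts. The 2 genes with the smallest p in each direction are named for the family comparison and for its interaction with day, and others are described without identifiers. The rules, lists and comparisons were chosen with earlier results of these data known. Alternatives were other scaling, filters, covariates and tools, all 12 seedlings, each day alone, and each seedling left out. The scripts were tested on simulated data. Figures used matplotlib 3.10.9.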

Additional observations from a re-analysis of the deposited data

Results flagged for a closer look

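Among 22 sets of 4 values per family (library measures and the levels of the named genes), 2 had a seedling apart from the other 3. In both sets 3 seedlings were at 0, so that any count in the remaining seedling sets it apart, and the rate of about 1 in 20 that chance gives for continuous values does not apply. LAY-15-30 was at 0.193 CPM of QL02p066548, with 2 counts, and the other LAY-15 seedlings were at 0. HV-11-34 was at 0.0830 CPM of QL01p009420, with 1 count, and the other HV-11 seedlings were at 0.

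For 4 genes, both HV-11 seedlings were on one side of their LAY-15 counterparts on day 19 and on the other side on day 30. The interaction on the log2 scale (day 19 minus day 30) was 10.11 for QL11p040314, 6.59 for QL02p050390, -4.38 for QL06p000916 and -3.61 for QL05p069603. The genes were chosen for this difference, and with edgeR it had an adjusted p of 0.0792, 0.212, 0.513 and 0.513 in that order.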

How the results depend on the processing

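The 2 calls of the family comparison were kept in number with median-ratio size factors, with no filter, with a CPM filter and with treatment by day as a block. They became 10 with no covariates, 7 with extraction day as the only covariate, 1 with all 12 seedlings, 768 with DESeq2, and 0 without both LAY-15 seedlings of day 19 (chosen after seeing the data). They lay between 0 and 2 when 1 seedling was left out, while DESeq2's (also chosen after seeing the data) were 413, 991, 1336 and 585 without HV-11-05, HV-11-33, HV-11-34 and HV-11-40, and 743, 552, 486 and 861 without LAY-15-03, LAY-15-09, LAY-15-30 and LAY-15-34. The 1 call of day 19 became 0 in the seedlings of that day alone and without any 1 of the 8 seedlings, and 1615 with DESeq2. DESeq2 called 332 genes on day 30, 608 for family by day and 93 for family by treatment, where edgeR called 0 under each of its alternatives. The genes on in 1 family and off in the other numbered 9 with 0 counts in the family without, 18 with at least 20 counts in the family with, 52 to 70 when 1 seedling was left out, and 129 without both LAY-15 seedlings of day 19. The share of genes chosen on day 19 with the same direction on day 30 was 53.3% (8 of 15) at an unadjusted p under 0.001. The share of variation between families lay between 21.0% and 29.4% when 1 seedling was left out (exact permutation p from 0.0571 to 0.2). The excess of HV-11 over LAY-15 in genes with at least 1 count lay between 217 and 816, and that in total counts between 536511 and 1032680, when 1 seedling was left out, with an exact permutation p of 0.0286 without HV-11-05 and without LAY-15-34 in turn. The directions of the named genes were the same in all 88 alternative fits of these genes, which had been chosen in largely the same seedlings. In 13 of these fits an adjusted p under 0.05 was lost, in 6 (all with DESeq2) one was gained, and in 69 neither happened. The cause of these changes was not tested.

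Depth limits the genes near 3 counts, and 4 seedlings a family limit the rest. The p-values measure the spread between these seedlings, and each family is 1 mother tree.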
